A study of Sus scrofa with 27 samples.

Results

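The genes described here are 36 members of the amino acid response and of the transcriptional programme of ATF4, measured in mural granulosa cells (GCs) of the pig ovary. They were chosen by name, as sensors and transcription factors, enzymes of amino acid synthesis, amino acid transporters and cytosolic tRNA synthetases, and kept where the mean count over the libraries was at least 5. The choice was made with earlier results of these data known. Of the 36, 35 passed this filter among 11384 named genes tested. TRIB3, a pseudokinase that ATF4 induces, fell below it with a mean count of 0.852 and was not tested, whereas the member just inside, SESN2, had a mean count of 7.44. All sows were primiparous wild-type Large White × Norwegian Landrace crosses. The full-fed (FF) group of 13 sows received 6.5 kg/day and the feed-restricted (RES) group of 14 sows 3.25 kg/day over the last 2 weeks of lactation, and both were fed alike after weaning until the ovaries were collected on day 2 post-weaning. The GCs of each sow came from her largest healthy follicle in the right ovary by laser capture, with 1 library per sow. The paper reports that this follicle was smaller in RES than in FF sows. The part of follicle size in the differences below was not tested. Sows were selected for sequencing by high (RES) or low (FF) body weight loss, so the groups are the ends of their diets and not random samples of them. The comparison asks whether the restriction during lactation left an amino acid response in these cells.

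When amino acids run short, uncharged tRNA activates the kinase GCN2, encoded by EIF2AK4. GCN2 and the endoplasmic reticulum kinase PERK, encoded by EIF2AK3, phosphorylate the initiation factor subunit eIF2α, encoded by EIF2S1, which lowers general translation but favours that of the ATF4 mRNA. The ATF4 protein then binds C/EBP-ATF response elements and induces enzymes of asparagine and serine synthesis, amino acid transporters, tRNA synthetases and, with longer stress, the transcription factor DDIT3 (CHOP) and the glutathione-degrading enzyme CHAC1. Much of this control acts on translation and phosphorylation, which RNA counts do not measure.

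Promoter sequences of the members were read from the RefSeq annotation of Sscrofa11.1, the build of the deposited counts, to show which members carry the core letters of the ATF4 element near their start. The motif searched was TGATGNAA, the core of the C/EBP-ATF response element, on both strands, within 250 bases before and 50 bases after the annotated gene start. A window was read for 35 of the 36 members. The motif was present in 7 of these 35 windows, against 545 of 19534 windows of protein-coding genes (2.79%). A match is a description of the letters and does not show binding. The 250 bases upstream of SLC7A11, CHAC1 and AARS1 follow from 5′ to 3′ on the strand of the gene, with the motif in capitals. They lie at chr8:88607833.0-88608082.0 on the plus strand, chr1:130363333.0-130363582.0 on the minus strand and chr6:13321424.0-13321673.0 on the minus strand, respectively.
SLC7A11: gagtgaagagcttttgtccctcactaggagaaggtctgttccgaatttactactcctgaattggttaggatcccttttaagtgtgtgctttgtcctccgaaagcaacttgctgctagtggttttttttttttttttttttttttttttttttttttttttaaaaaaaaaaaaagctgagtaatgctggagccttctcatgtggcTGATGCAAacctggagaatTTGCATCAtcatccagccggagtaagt
CHAC1: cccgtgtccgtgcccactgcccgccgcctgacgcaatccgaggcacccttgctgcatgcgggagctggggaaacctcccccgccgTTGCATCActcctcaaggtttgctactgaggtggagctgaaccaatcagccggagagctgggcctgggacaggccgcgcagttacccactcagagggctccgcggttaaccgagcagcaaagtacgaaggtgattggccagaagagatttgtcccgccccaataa
AARS1: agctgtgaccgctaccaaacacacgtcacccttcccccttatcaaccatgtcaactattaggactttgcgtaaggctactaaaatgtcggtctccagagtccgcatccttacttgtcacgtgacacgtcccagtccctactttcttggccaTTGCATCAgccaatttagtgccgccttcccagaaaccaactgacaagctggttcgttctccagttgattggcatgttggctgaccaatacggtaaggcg

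SLC7A11 held the motif in both orientations, beginning 46 and 27 bases before the start. CHAC1 held it 165 bases and AARS1 99 bases before the start, each on the opposite strand, so that the capitals read as the reverse complement. VLDLR held it 234 bases before the start. In SLC7A1, TARS1 and YARS1 the motif lay within the first 50 bases of the gene, from base 14, base 26 and base 33. TARS1 is shown with 11 bases on either side because it was the only member with the motif near its start that was called between the diets.
TARS1: gcgctttcctaTTGCATCAgctggcacgag

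The 27 libraries held between 12299220 and 18120922 counted read pairs, with a median of 13490513 in FF and 15232600 in RES. Pearson's r between libraries of the same group on log2 normalized counts ranged from 0.914 to 0.981. The study's library table lists the base quality of each library, and a break in these values gave an upper quality group of 7 FF and 7 RES sows and a lower quality group of 6 FF and 7 RES sows. FF sow 10 was placed by its number, in the lower group, but the sow numbers of that table and of the labels do not match fully around this library, so it may belong to the upper group, which would then hold 8 FF sows and the lower one 5. Per the labels 1 FF sow, numbered 9, was left out for low RNA integrity, whereas the study's RNA table has its lowest FF integrity on the row numbered 10, so that the library of FF sow 10 may be the one of low integrity. Without it edgeR called 9 members, the 8 described below and VLDLR. The granulosa cell markers summed to between 4730 and 10590 CPM, the counts scaled to a fixed library total, over all libraries, and 0 of the 11 were without counts. One of these 11, the anti-Müllerian hormone receptor gene AMHR2, was called, lower in RES by a log2 difference of -0.83 ± 0.25 (SE) in edgeR with an adjusted p of 0.0233, and voom also called INHBB, the inhibin βB subunit, higher (adjusted p = 0.00305, against 0.0907 in edgeR). The endothelial markers summed to 85.9 to 183 CPM in FF and 65.2 to 198 CPM in RES, with medians of 125 and 89.2 CPM. Of the 8, 7 had a negative log2 difference of RES from FF, and edgeR called 3 lower (EMCN, CLDN5 and CDH5), DESeq2 4 and voom 5. The smooth muscle and pericyte markers summed to 193 to 659 CPM in FF and 139 to 597 CPM in RES, with medians of 301 and 206 CPM and 12 of 14 RES sows below the FF median. All 7 had a negative log2 difference, and 2 were called lower. For theca markers the sums were 137 to 419 CPM in FF and 81.3 to 385 CPM in RES, with medians of 223 and 163 CPM and 13 of 14 RES sows below the FF median. Of the 7, 6 had a negative log2 difference and 1 was called lower. None of the markers in these 4 lists was at 0 in every library. Erythroid markers had medians of 6.34 CPM in FF and 1.94 CPM in RES, and HBB was called lower in RES. Medians in FF and RES were 11.0 and 7.25 CPM for immune, 1623 and 1442 CPM for fibroblast and stroma, and 15.5 and 14.6 CPM for oocyte markers. edgeR called 0 of 4, 0 of 6 and 0 of 2 tested markers of these lists, with 2, 2 and 0 at an unadjusted p under 0.05, and voom 2, 1 and 0. The oocyte marker OOSP2 was at 0 in every library. The part of these cells in the differences below was not tested, and in such bulk samples fewer cells of a type and less RNA per cell cannot be told apart.

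Feed restriction went with higher mRNA of 3 serine and one-carbon enzymes (PHGDH, SHMT2 and MTHFD2) and of 3 tRNA synthetases (EPRS1, TARS1 and GARS1), and with lower mRNA of DDIT3 and SESN2. Of the 35 members tested, 8 were called at an adjusted p under 0.05, 6 of them higher and 2 lower in RES. Over all named genes the share called was 14.1%, with 8.29% higher and 5.85% lower, and the share among the members was 22.9%. Since the members were chosen with earlier results of these data known, these shares describe the list and do not test it. DESeq2 called 9 members, against 17.0% of all named genes, and voom of limma with a weight for each library 11 members, against 28.0%. At an unadjusted edgeR p under 0.05 there were 11 of 35 members, against 30.0% of all named genes. The median log2 fold change (log2FC) of RES over FF was 0.14 over the members and -0.02 over all named genes. The higher calls came from 2 of the roles and the lower calls from another, as the plot of the fold changes by role shows. ATF4 and ASNS, the classical effector and target of the pathway, were not called. None of the called members separated the 2 groups fully, and 1 gene in 11384 (0.00878%) did.

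**Figure D1:**
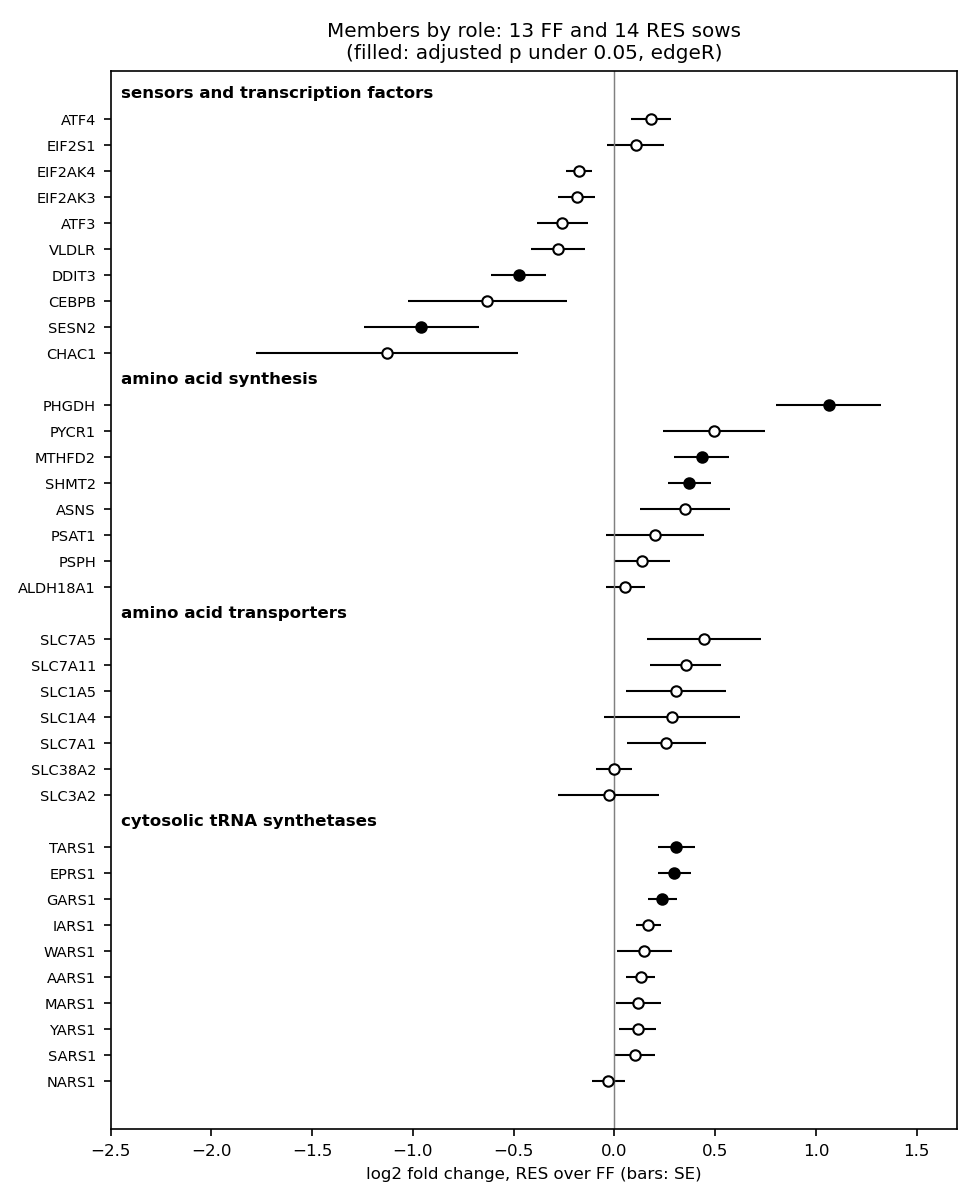
Log2 fold change of RES over FF (x axis) for the 35 tested members (y axis), grouped by role, with bars of 1 SE. Filled points are the 8 members with an adjusted p under 0.05 in edgeR. The amino acid synthesis enzymes all lie right of 0, from 0.05 for ALDH18A1 to 1.06 for PHGDH, while 8 of the 10 sensors and transcription factors lie left of it.

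Among the sensors and transcription factors, 2 of 10 tested were called, both lower in RES, and the median log2FC was -0.27. DDIT3 (ENSSSCG00000050998, chr5:22785441-22789867, minus strand) encodes CHOP, the transcription factor of prolonged eIF2α signalling. Its normalized counts ranged from 39.5 to 89.3 in FF with a median of 59.4, and from 33.2 to 59.6 in RES with a median of 45.6. The groups overlapped, but 13 of the 14 RES sows lay below the FF median and 5 below the lowest FF sow. FF sows averaged 61.4 ± 15.1 (SD, n = 13) and RES sows 45.4 ± 9.14 (SD, n = 14), with a log2FC of -0.47 ± 0.14 (SE) and an edgeR adjusted p of 0.0209. The call held in each of the 27 fits that left out 1 sow. In RefSeq, exons of DDIT3 and MARS1 share 69 bases on opposite strands. The counting set no strand option, and its Ensembl exons were not compared with those of RefSeq, so any effect on the counts is not known.

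SESN2 (ENSSSCG00000029438, chr6:85321982-85348044, plus strand) encodes a sestrin, a stress-induced leucine sensor that restrains mTORC1. It was near the lower limit of the counts. Its normalized counts ranged from 3.85 to 16.9 in FF with a median of 8.81, and from 1.93 to 11.2 in RES with a median of 4.37. In RES, 11 of 14 sows lay below the FF median, and the ranges overlapped. The means were 10.03 ± 4.76 (SD, n = 13) and 5.22 ± 2.98 (SD, n = 14), with a log2FC of -0.96 ± 0.29 (SE) and an edgeR adjusted p of 0.0252. The log2FC stayed between -1.09 and -0.87 when sows were left out one at a time, with the call kept in all 27 fits.

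ATF4 (ENSSSCG00000059058, chr5:8742964-8745752, minus strand), the transcription factor at the centre of the programme, ranged from 507 to 1183 normalized counts in FF with a median of 870, and from 730 to 1276 in RES with a median of 1024. Its levels overlapped over most of the range, and 10 of 14 RES sows exceeded the FF median. The means were 857 ± 173 (SD, n = 13) and 1004 ± 175 (SD, n = 14), with a log2FC of 0.18 ± 0.10 (SE) and an edgeR adjusted p of 0.225. No difference in ATF4 mRNA was therefore called in either direction, and none was called under any of the 11 other settings or in the 27 leave-one-out fits.

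EIF2AK4 (ENSSSCG00000039061, chr1:131244818-131355240, minus strand), the amino acid sensor GCN2, was very even among FF sows, from 688 to 810 normalized counts with a median of 754. RES sows reached further down, from 522 to 787 with a median of 689, and 7 of 14 lay below the lowest FF sow. The means were 753 ± 40.2 (SD, n = 13) and 687 ± 72.1 (SD, n = 14), with a log2FC of -0.17 ± 0.06 (SE) and an edgeR adjusted p of 0.0630, short of the threshold. DESeq2 called it with an adjusted p of 0.0411, limma's voom with an adjusted p of 0.0431, and edgeR called it when RES sow 2 or RES sow 4 was left out. In all, 4 of the 11 other settings and 2 of the 27 leave-one-out fits called it. Within the upper and lower quality groups its edgeR adjusted p was 0.328 and 0.4245. RefSeq exons of EIF2AK4 share 2172 bases with SRP14 on the opposite strand.

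The remaining members of this role were not called. EIF2AK3 had a log2FC of -0.19 ± 0.09 (SE), ATF3, a stress-induced factor downstream of ATF4, one of -0.26 ± 0.13 and VLDLR, a lipoprotein receptor, one of -0.28 ± 0.13. EIF2S1 stood at 0.11 ± 0.14, and at 0.05 to 0.16 when 1 sow was left out. CHAC1, an enzyme that degrades glutathione, was the most variable member, with an SD among sows of 1.85 in FF and 2.30 in RES on the log2 scale. Its normalized counts ran from 8.86 to 738 in FF with a median of 103, and from 0 to 485 in RES with a median of 31.6. RES sows were spread over nearly the whole FF range, and 4 lay below it. voom called it with an adjusted p of 0.0147, whereas DESeq2 did not, with 0.268. In edgeR the log2FC of CHAC1 was -1.13 ± 0.65 (SE, adjusted p = 0.244), and it became -1.86 with an adjusted p of 0.0301 when RES sow 7 was left out but -0.68 with an adjusted p of 0.517 without FF sow 2. CEBPB, the partner factor of ATF4, was also uneven among sows, from 10.3 to 167 in FF and from 3.41 to 114 in RES, with a log2FC of -0.63 ± 0.39, which ran from -0.95 without RES sow 7 to -0.31 without FF sow 2 and was not called in either fit.

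**Figure D2:**
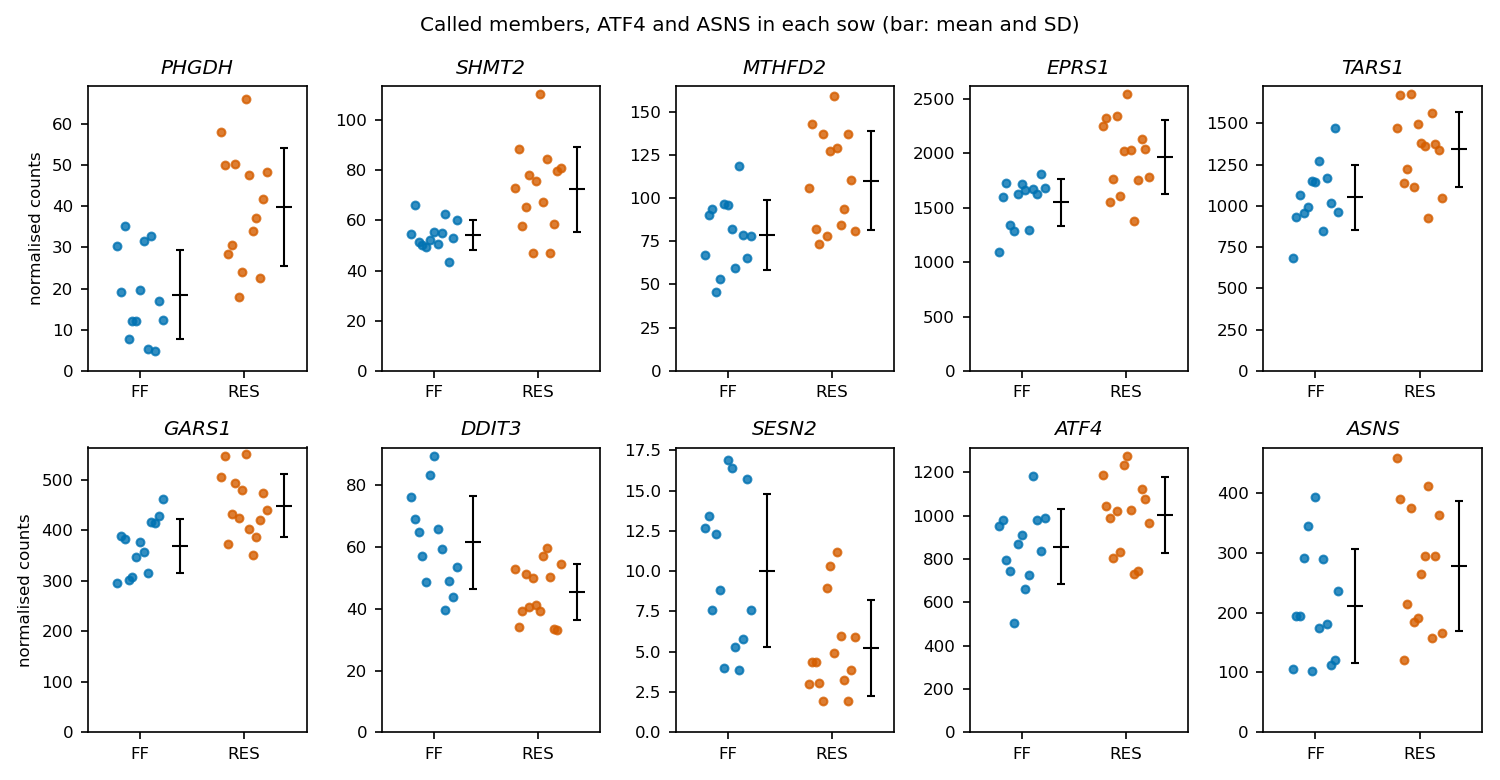
Normalized counts (y axes, from 0) of the 8 called members, ATF4 and ASNS in each FF and RES sow, with the mean and SD beside the points. All 14 RES sows lie above the FF median of 16.9 for PHGDH, and 13 of 14 lie below the FF median of 59.4 for DDIT3, while the ranges overlap for each gene.

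Of the 8 enzymes of amino acid synthesis, 3 were called and each was higher in RES, with a median log2FC of 0.36 over the role. PHGDH (ENSSSCG00000006717, chr4:101445977-101478144, minus strand) catalyses the first step of serine synthesis from a glycolytic intermediate. It ranged from 4.80 to 35.2 normalized counts in FF with a median of 16.9, and from 18.0 to 66.1 in RES with a median of 39.4. All 14 RES sows lay above the FF median and 8 above the highest FF sow. The means were 18.5 ± 10.8 (SD, n = 13) and 39.8 ± 14.3 (SD, n = 14), and the edgeR fit gave a 2.09-fold higher level in RES, a log2FC of 1.06 ± 0.26 (SE) and an adjusted p of 0.00743. The log2FC stayed between 0.97 and 1.18 when sows were left out in turn.

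SHMT2 (ENSSSCG00000037077, chr5:22535780-22540322, plus strand), which converts serine to glycine in mitochondria and loads one-carbon units on folate, ranged from 43.2 to 66.2 in FF with a median of 52.8, and from 46.9 to 110 in RES with a median of 74.3. FF sows were close to each other, and 9 of 14 RES sows exceeded all of them. The means were 54.1 ± 6.01 (SD, n = 13) and 72.3 ± 17.0 (SD, n = 14), with a log2FC of 0.37 ± 0.11 (SE) and an edgeR adjusted p of 0.0213. Its RefSeq exons share 198 bases with NXPH4 on the same strand.

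MTHFD2 (ENSSSCG00000008289, chr3:68819171-68833641, minus strand), the next enzyme of the mitochondrial folate pathway, ranged from 45.8 to 118 in FF with a median of 78.8, and from 73.6 to 159 in RES with a median of 108. The groups overlapped, with 12 of 14 RES sows above the FF median. The level fitted by edgeR was 1.35-fold higher in RES, with an SD of 20.4 in FF (n = 13) and 28.5 in RES (n = 14), a log2FC of 0.43 ± 0.13 (SE) and an edgeR adjusted p of 0.0308. This call was lost without FF sow 6, 8 or 14 or without RES sow 1, 3, 6 or 12, where the adjusted p reached at most 0.0571. The RefSeq exons of MTHFD2 share 123 bases with SLC4A5 on the opposite strand.

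ASNS (ENSSSCG00000015340, chr9:77318341-77336290, minus strand), asparagine synthetase, varied widely within each diet, from 102 to 393 normalized counts in FF with a median of 194 and from 120 to 458 in RES with a median of 279. The ranges overlapped nearly completely, and 9 of 14 RES sows lay above the FF median. The means were 211 ± 94.5 (SD, n = 13) and 277 ± 108 (SD, n = 14), with a log2FC of 0.35 ± 0.22 (SE) and an edgeR adjusted p of 0.292. edgeR called none of the other enzymes of this role either. PYCR1, the last step of proline synthesis, had a log2FC of 0.49 ± 0.25 with 13 of 14 RES sows above the FF median, and voom called it with an adjusted p of 0.0480. PSAT1 and PSPH, the steps of serine synthesis after PHGDH, had a log2FC of 0.20 ± 0.24 and 0.14 ± 0.14, and ALDH18A1, the entry to proline synthesis, one of 0.05 ± 0.09. These small values moved with single sows, PSAT1 from 0.09 without RES sow 4 to 0.38 without FF sow 10, PSPH from 0.08 without RES sow 9 to 0.19 without RES sow 3, and ALDH18A1 from 0.02 without RES sow 3 to 0.09 without FF sow 10.

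None of the 7 amino acid transporters was called by edgeR, DESeq2 or voom, and 0 of 7 had an unadjusted edgeR p under 0.05. The median log2FC of the role was 0.28. SLC7A11, the cystine and glutamate exchanger, ranged from 121 to 338 normalized counts in FF with a median of 244 and from 130 to 563 in RES with a median of 302. Of the RES sows, 12 of 14 lay above the FF median and 5 above the highest FF sow, and the log2FC was 0.35 ± 0.18 (SE, edgeR adjusted p = 0.174). SLC7A5, the light chain of the leucine transporter LAT1, stood at 0.45 ± 0.28, and its heavy chain SLC3A2 at -0.03 ± 0.25. Leaving out 1 sow turned the sign of SLC3A2, from -0.13 without RES sow 3 to 0.25 without FF sow 10, and took SLC7A5 from 0.28 to 0.57 with the same 2 sows. The arginine transporter SLC7A1 and the neutral amino acid transporters SLC1A5 and SLC1A4 had log2FC values of 0.26 ± 0.20, 0.31 ± 0.25 and 0.28 ± 0.34. SLC1A5 ran from 0.17 without RES sow 9 to 0.38 without FF sow 5, and SLC1A4 from 0.18 without RES sow 3 to 0.64 without FF sow 13. SLC38A2, the glutamine transporter SNAT2, had a log2FC of 0.00 ± 0.09, with medians of 5342 in FF and 5356 in RES.

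Of the 10 cytosolic tRNA synthetases, 3 were called, all higher in RES, and 9 of the 10 had a log2FC above 0. EPRS1 (ENSSSCG00000010821, chr10:9579301-9648416, minus strand) charges glutamate and proline tRNAs. It ranged from 1095 to 1807 normalized counts in FF with a median of 1629, and from 1383 to 2548 in RES with a median of 2027, and 8 of 14 RES sows exceeded the highest FF sow. The means were 1551 ± 218 (SD, n = 13) and 1968 ± 338 (SD, n = 14), with a log2FC of 0.30 ± 0.08 (SE) and an edgeR adjusted p of 0.0144.

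TARS1 (ENSSSCG00000016817, chr16:19455294-19486735, plus strand), the threonine enzyme whose start region is shown above, ranged from 682 to 1469 in FF with a median of 1017, and from 926 to 1676 in RES with a median of 1369. In RES, 13 of 14 sows were above the FF median. The means were 1051 ± 198 (SD, n = 13) and 1342 ± 228 (SD, n = 14), with a log2FC of 0.31 ± 0.09 (SE) and an edgeR adjusted p of 0.0262. Its RefSeq exons share 1118 bases with the uncharacterized locus LOC100738904 on the opposite strand.

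GARS1 (ENSSSCG00000016677, chr18:42311711-42352201, minus strand), the glycine enzyme, ranged from 295 to 461 in FF with a median of 376, and from 351 to 551 in RES with a median of 436. Here 12 of 14 RES sows lay above the FF median. The means were 368 ± 53.6 (SD, n = 13) and 448 ± 61.9 (SD, n = 14), with a log2FC of 0.24 ± 0.07 (SE) and an edgeR adjusted p of 0.0297. The call was lost without FF sow 6, 8 or 14 or without RES sow 1, 3 or 9, and with upper-quartile scaling, at an adjusted p of 0.0519. IARS1, the isoleucine enzyme, had a log2FC of 0.17 ± 0.06 (SE) and an adjusted p of 0.0665, and passed the threshold when FF sow 13, RES sow 5 or RES sow 10 was left out. The log2FC of the other 6 synthetases ranged from -0.03 for NARS1 to 0.15 for WARS1, the latter 0.05 without RES sow 3. When 1 sow was left out, NARS1 ran from -0.06 to 0.002. AARS1, which carries the motif upstream of its start, stood at 0.13 ± 0.07.

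**Figure D3:**
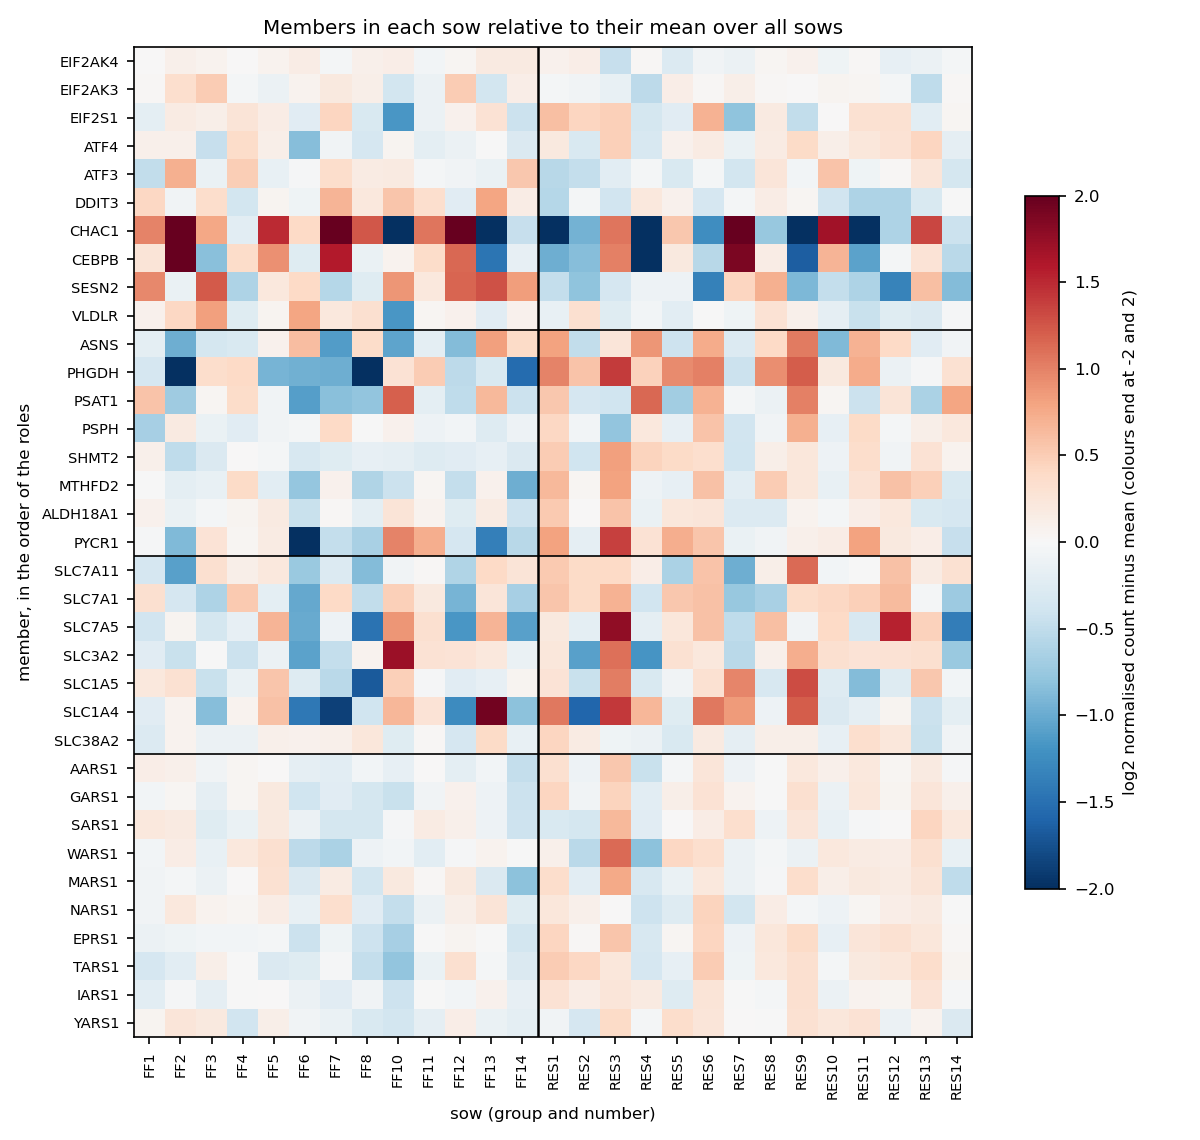
Log2 normalized count (plus 1) of the 35 tested members (rows, in the order of the roles, divided by lines) in each of the 27 sows (columns, FF left and RES right), minus the mean of the gene over all sows. CHAC1 and CEBPB vary widely within both diets, with an SD among FF sows of 1.85 and 1.02 on this scale, while the SDs of the synthetases at the bottom are 0.13 to 0.46 in either diet.

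The differences of the 8 called members had the same direction in both quality groups. These groups hold the sows that gave the calls, so this is not an independent check. Of the 35 members, 17 were higher and 6 lower in RES in both groups, against 3439 and 3653 of the 11384 named genes. In the upper group the log2FC was 1.02 ± 0.38 (SE) for PHGDH, 0.50 ± 0.13 for SHMT2, 0.45 ± 0.19 for MTHFD2, 0.32 ± 0.11 for EPRS1, -0.50 ± 0.20 for DDIT3 and -1.17 ± 0.39 for SESN2. In the lower group the same genes had values of 1.12 ± 0.36, 0.24 ± 0.19, 0.42 ± 0.20, 0.28 ± 0.13, -0.46 ± 0.20 and -0.84 ± 0.38. TARS1 stood at 0.29 ± 0.11 and 0.34 ± 0.15, and GARS1 at 0.28 ± 0.11 and 0.19 ± 0.12. edgeR called 6 members in the upper group (3 higher and 3 lower), against 17.8% of all named genes, and 0 members in the lower group, against 0.00878% of all named genes. The 6 were SHMT2, PSAT1 and SLC1A4, higher, and SESN2, VLDLR and CHAC1, lower, so that 2 of the 8 were among them, while PHGDH, MTHFD2, EPRS1, TARS1, GARS1 and DDIT3 had adjusted p-values of 0.0626 to 0.112 there. Of all named genes 9.83% were called higher and 7.94% lower in the upper group. At an unadjusted p under 0.05 the numbers were 19 of 35 members in the upper group, against 34.2% of all named genes, and 6 of 35 in the lower one, against 12.2%. With FF sow 10 counted in the upper group, an alternative added after the data were seen, edgeR called 2 members there (SHMT2 and SESN2), against 9.07% of all named genes, and 0 members in the lower group, against 0.0%. The 8 members kept their direction in both groups.

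Several members outside the called ones differed in sign between the quality groups. PSAT1 had a log2FC of 0.86 ± 0.26 (SE) in the upper and -0.51 ± 0.32 in the lower group, SLC1A4 of 1.07 ± 0.35 and -0.41 ± 0.49, and ASNS of 0.75 ± 0.29 and -0.14 ± 0.26. CHAC1 stood at -2.73 ± 0.91 in the upper and 0.01 ± 0.75 in the lower group, and CEBPB at -1.60 ± 0.55 and 0.19 ± 0.44. A test of the interaction of diet and quality group in edgeR, added after the data were seen, called 0 of the 35 members and 0 of the 11384 named genes at an adjusted p under 0.05, with 6 members and 1398 named genes at an unadjusted p under 0.05. PSAT1 was the lowest of these, at 0.00377 before and 0.235 after adjustment. With FF sow 10 in the upper group the interaction called 0 members and 0 named genes, with 2 members (ASNS and CEBPB) and 521 named genes at an unadjusted p under 0.05, and PSAT1 stood at 0.117. The log2FC of CHAC1 then had 1 sign in both groups, with -2.53 ± 0.95 in the upper and -0.23 ± 0.73 in the lower one.

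**Figure D4:**
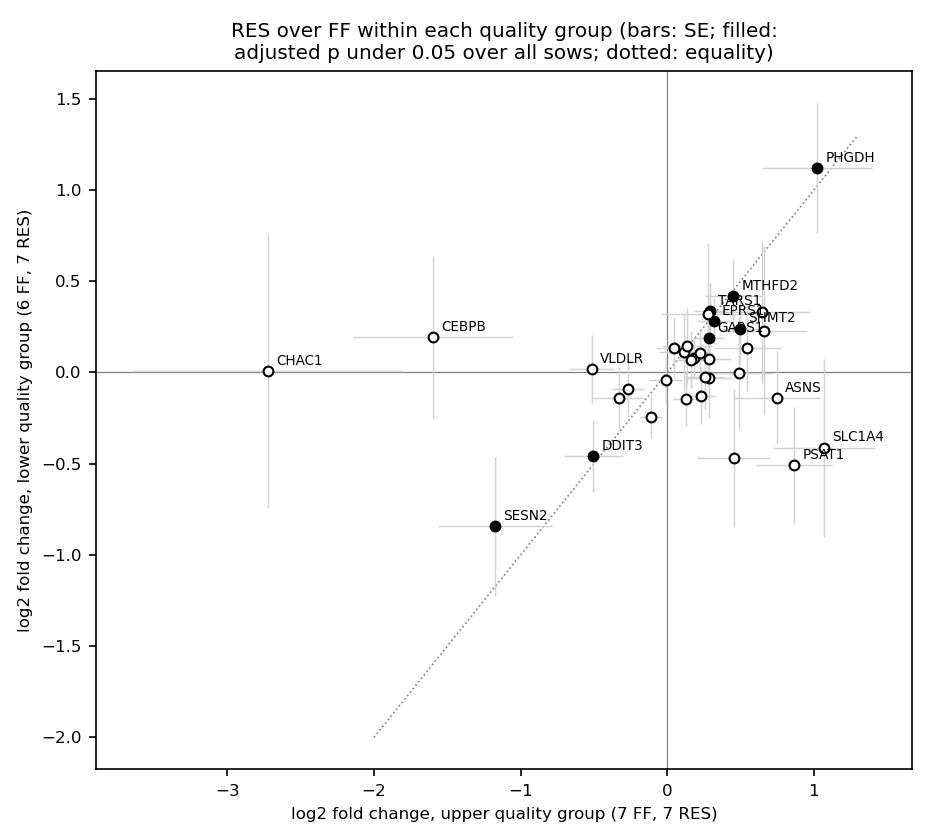
Log2 fold change of RES over FF of the 35 tested members in the upper (x axis, 7 FF and 7 RES sows) and lower (y axis, 6 FF and 7 RES sows) quality group, with bars of 1 SE and a dotted line of equality. The 8 filled points, called over all sows, have the same sign on both axes, from -1.17 and -0.84 for SESN2 to 1.02 and 1.12 for PHGDH.

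To see how the members varied together, their log2 normalized counts were correlated with ASNS and with CDK1, the mitotic kinase, among sows of 1 diet. CDK1 itself was higher in RES, at 1518 ± 607 (SD, n = 14) normalized counts against 721 ± 411 (SD, n = 13) and an edgeR adjusted p of 0.00926. Of 36 correlations computed, 4 had an adjusted permutation p under 0.05. SLC7A11 rose with CDK1 in both diets, with r = 0.74 in FF (rho = 0.73, permutation p = 0.0034 and 0.00693, adjusted p of r 0.0306) and r = 0.77 in RES (rho = 0.70, permutation p = 0.0015 and 0.00665, adjusted p of r 0.0295). Without the 2 sows farthest from the median of CDK1, r was 0.55 in FF and 0.57 in RES. Within the quality groups it was 0.84 and 0.57 in FF, and 0.34 and 0.93 in RES, for the upper and the lower group, respectively, and 0.82 in the upper FF sows with FF sow 10 among them.

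PHGDH also followed CDK1 in FF, with r = 0.76 (rho = 0.73, permutation p = 0.00253 and 0.00582, adjusted p of r 0.0304), and r became 0.60 once the 2 farthest sows were left out. Within the upper and lower quality groups it was 0.87 and 0.48, and 0.78 in the upper one with FF sow 10. In RES the r of this pair was 0.53, with an adjusted permutation p of 0.169, and it fell to 0.17 without the 2 farthest sows. MTHFD2 and CDK1 in RES were just outside the threshold, with r = 0.66 and an adjusted permutation p of 0.0535. The part of CDK1 in the difference of PHGDH between the diets was not tested.

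CHAC1 ran opposite to ASNS in RES, with r = -0.76 (rho = -0.79, permutation p = 0.00164 and 0.00116, adjusted p of r 0.0295). Leaving out the 2 sows farthest from the median of ASNS gave r = -0.83. The quality groups differed, with r = -0.80 in the upper one and r = -0.16 in the other, a difference that was not tested. In FF the r of this pair was -0.45 (adjusted permutation p = 0.276), but without FF sow 10, the library of doubtful integrity, it was -0.83 with an adjusted permutation p of 0.0149, so that the pair passed the threshold in both diets. ATF4 and ASNS did not track each other in a way the test could detect, with r = -0.41 in FF and 0.24 in RES and adjusted permutation p values of 0.325 and 0.58.

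**Figure D5:**
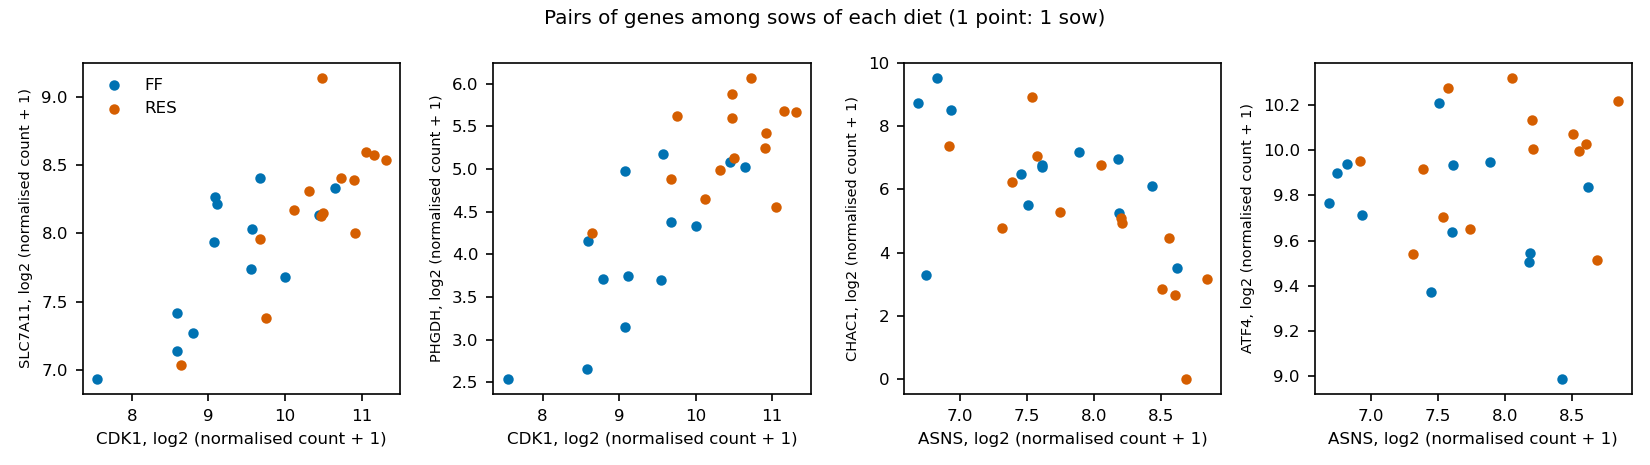
Log2 (normalized count + 1) of 4 pairs of genes, with 1 point per sow in FF and RES. SLC7A11 climbs with CDK1 in both diets (r = 0.74 and 0.77), PHGDH with CDK1 in FF (r = 0.76), CHAC1 declines with ASNS in RES (r = -0.76), and ATF4 shows no detected relation with ASNS.

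Other lists of genes around the pathway were counted in the same way, and their shares called stand against 14.1% of all named genes by edgeR and 28.0% by voom. Of 21 other eIF2 and ATF4 pathway genes tested, edgeR called 2 (9.52%), both higher in RES, and voom 5, 4 higher and 1 lower. These were CTH, which makes cysteine from cystathionine, with a log2FC of 0.60 ± 0.15 (SE, edgeR adjusted p = 0.00692) and all 14 RES sows above the FF median, and EIF2S2, the beta subunit of eIF2, with 0.50 ± 0.13 (adjusted p = 0.0131). Of 11 other genes of cytosolic tRNA charging (9 synthetases and AIMP1 and EEF1E1, auxiliary proteins of the synthetase complex), edgeR called 1 (9.09%) and voom 2. The edgeR call was LARS1 for leucine, at 0.29 ± 0.08 (edgeR adjusted p = 0.0212), and 10 of the 11 had a log2FC above 0. Of 17 mitochondrial tRNA synthetases, edgeR and DESeq2 called 0 and voom 4, with 2 at an unadjusted edgeR p under 0.05 and a median log2FC of 0.01.

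Of 23 other genes of amino acid metabolism, edgeR called 3 higher and 1 lower in RES (17.4%) and voom 6 higher and 4 lower, while 12 had a log2FC above and 11 below 0. DAO, which oxidizes D-amino acids including D-serine, rose from 6.01 ± 4.63 (SD, n = 13) normalized counts in FF to 28.0 ± 27.4 (SD, n = 14) in RES, with a log2FC of 2.19 ± 0.47 (SE) and an edgeR adjusted p of 0.00306. SRR, the serine racemase, was higher by 0.35 ± 0.10, and ASL, argininosuccinate lyase, was lower in all 14 RES sows than the FF median, with a log2FC of -0.65 ± 0.19. Of 21 other amino acid transporters, edgeR called 2 (9.52%), both lower in RES, and voom 7, 1 higher and 6 lower. The calls of edgeR were the cationic amino acid transporters SLC7A3, with a log2FC of -0.82 ± 0.28 (edgeR adjusted p = 0.0490), and SLC7A2, with -0.67 ± 0.23 (adjusted p = 0.0494). The call of SLC7A3 held in 5 and that of SLC7A2 in 8 of the 27 fits that left out 1 sow.

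In the mTORC1 branch, which senses amino acids at the lysosome, edgeR called 7 of 32 genes tested (21.9%), 1 higher and 6 lower in RES, and voom 10, 2 higher and 8 lower. DEPTOR, an inhibitor bound to mTOR, had a log2FC of -1.02 ± 0.23 (SE, edgeR adjusted p = 0.00353), with 13 of 14 RES sows below the FF median. FNIP1, the partner of folliculin that acts on the Rag GTPases, had -0.46 ± 0.10 (adjusted p = 0.00368), and SESN1, a sestrin related to SESN2, had -0.55 ± 0.17 (adjusted p = 0.0263).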

How the data were processed

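RNA of mural GCs was sequenced in 27 libraries, 1 for each sow. Per the labels and the file headers, the authors aligned reads to Sscrofa11.1 with HISAT2 2.2.1, kept unique alignments with SAMtools 1.16.1, removed PCR copies with UMI-tools 1.1.4 and deposited unnormalized counts of read pairs per gene from featureCounts 1.6.2 with Ensembl release 110. The libraries kept strand, but the counting set no strand option. Gene positions and exon overlaps given here are those of RefSeq, and were not compared with the Ensembl exons that were counted. The members and all lists were chosen with earlier results of these data known. Symbols came from a table pairing Ensembl identifiers with names. Of 35670 identifiers, 17467 had a mean count of at least 5, and 11384 of these with a symbol, after leaving out 38 small RNA symbols, were tested with edgeR 4.0.16 (TMM, quasi-likelihood test, two-sided, R 4.3.3) and Benjamini-Hochberg adjustment over all of them. A call is an adjusted p under 0.05.

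For display, each library was scaled by its DESeq2 1.42.0 size factor, which gave the normalized counts. These factors were computed over all 17467 identifiers, whereas the log2FC used TMM over the 11384 named genes. Displayed levels and the log2FC beside them can therefore differ slightly. NARS1, for example, had means of 1526 in FF and 1542 in RES with a log2FC of -0.03. Means are given ± SD over sows and log2FC ± SE. The SE was derived from the log2FC and its F value. Alternatives were DESeq2's Wald test, its size factors or upper-quartile factors in edgeR, no filter, filterByExpr, all identifiers, the sow number as a replicate block, the quality group as covariate or alone, leaving out each sow, and voom of limma 3.58.1 with sample quality weights. Correlations used a pseudocount of 1, 100000 permutations and two-sided p-values, whose smallest value is 1e-05, in numpy 2.4.6. On simulated counts of 11323 genes in this comparison, edgeR recovered 91.3% of 195 genes changed 2-fold, with 4.30% false calls. Only 2-fold changes were simulated, so the recovery of smaller differences, such as those of ATF4 and ASNS, was not tested. Full values are given for each called member, up to 12, and for ATF4, ASNS and EIF2AK4, and for at most 3 called genes of every other list. CHAC1, SLC7A11, PYCR1 and CEBPB are described further after their values were seen. SLC7A5 has no protein-coding gene model on a chromosome in the RefSeq table, so its promoter was not used here. Precision is limited by counts for low genes such as SESN2, and counting is of PCR-deduplicated reads.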

Additional observations from a re-analysis of the deposited data

How the results depend on the processing

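The number of called members, 8, was the same with DESeq2's size factors, no filter and the quality group as covariate, with the same genes. DESeq2's Wald test added EIF2AK4 and all identifiers IARS1, giving 9 each. Upper-quartile factors also gave 8, with EIF2AK4 in place of GARS1, 5 higher and 3 lower, and filterByExpr 8, with EIF2AK4 in place of SESN2, which could not be tested. The count was 11 with voom (EIF2AK4, CHAC1 and PYCR1 added), 6 with the upper quality group alone (SHMT2 and SESN2 of the 8, with PSAT1, SLC1A4, VLDLR and CHAC1), and 0 with the lower one, where 1 of all named genes was called, and 6 to 9 when 1 sow was left out. The calls higher in RES numbered 3 with the upper quality group alone, 0 with the lower one and 4 to 7 without 1 sow. The calls lower in RES numbered 4 with voom, 0 in the lower quality group and 2 to 3 without 1 sow. With FF sow 10 in the upper quality group, added after the data were seen, the count was 2 there (1 higher and 1 lower) and 0 in the lower one, with 1033 and 0 of all named genes. Over all named genes, voom called 3193, and the fits without 1 sow called 1182 to 2350, the most without RES sow 7. The median log2FC of the members was 0.02, in the lower quality group less FF sow 10, to 0.25 in these settings and 0.10 to 0.16 without 1 sow. Upper-quartile scaling took the share of higher calls among named genes from 58.6% to 51.1%, and all identifiers to 70.2%, while 24 and 27 of 35 members were above 0. The 4 correlations became 5 on TMM-scaled values and 6 without FF sow 10. Equal sow numbers did not pair the libraries, since 1 of 13 pairs had a correlation of deviations over 0.1 (median 0.01), and 0 of 13 FF and 1 of 13 RES sows correlated best with their own number. With the replicate block, 3 members were called (PHGDH, EPRS1 and SHMT2), 3 higher and 0 lower, and 1084 of all named genes, with 11 members (of 35) and 3052 named genes (26.8% of those tested) at an unadjusted p under 0.05. The cause of these shifts was not tested.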
